A study of Mus musculus with 8 samples.

Results

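This comparison sets the 2 libraries of CD41- CD9- progenitors against the 2 libraries of CD48dim progenitors, across all genes and in both directions. They are 4 of the 8 libraries of a study that sorted mouse common myeloid progenitors into 4 populations for bulk RNA sequencing. Bone marrow of C57BL/6 mice, wild type and with no treatment named, was the source of every library. Neither the age nor the number of the mice is stated in the labels. Both populations were gated as KIT+, CD16/32- and CD34dim, and they were parted by the gates that followed. The CD41- CD9- cells lacked both surface proteins, with no gate on CD48 named. The CD48dim cells were CD41+ CD9+ with dim CD48. The populations not compared here, CD48bright (CD34dim CD41+ CD9+ CD48bright) and CD34bright (CD34bright CD41+ CD9+), entered the fit and are given where they place a gene. Libraries were grouped by the gate on their labels, since the cluster numbers in titles, file names and design text differ from one another. Whether the duplicates of a population stem from different mice or sorts is not stated. The tests therefore weigh differences against a spread between duplicates that may be technical only.

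Common myeloid progenitors are the bone marrow cells placed between the stem cell and the granulocyte, monocyte, erythroid and megakaryocyte lineages, and surface markers part them into fractions that lean to one or another. CD41 is the integrin alpha chain of the platelet fibrinogen receptor, CD9 is a tetraspanin found with it on megakaryocytes, and CD48 is a SLAM family protein that mouse stem cells lack and most committed progenitors carry. Within the marrow MECOM belongs to stem and megakaryocytic cells, and GATA2 to these and to mast cells and basophils. The receptors for FLT3 ligand and interleukin 7, the recombinase genes and IRF8 belong to cells that lean to lymphoid, dendritic and monocytic fates.

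The CD41- CD9- libraries held 12893841 and 12073092 expected counts and the CD48dim libraries 12753193 and 7237587. Of 24411 genes, 13177 were tested. The CD48dim libraries were less alike than the others: over the tested genes the Spearman correlation was 0.962 between the CD41- CD9- libraries and 0.836 between the CD48dim libraries, a description across genes, which are not independent replicates. CD48dim replicate 1 correlated more with CD41- CD9- replicates 1 and 2, at 0.87 and 0.852, than with its own duplicate. CD48dim replicate 2 correlated less with them, at 0.808 and 0.831. With the CD48bright libraries CD48dim replicate 1 was at 0.919 and 0.893, and with the CD34bright libraries at 0.908 and 0.902. CD48dim replicate 2 had the lowest total of the 8, with a count in 12660 genes against 16382 in replicate 1, and its level of the nuclear RNA Malat1 was the highest, at 38947 CPM. Levels are given as CPM, counts divided by the scaled library total and set to a common total, as replicate 1 and then replicate 2 of each population. Floors cover counting error only.

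The populations were parted on CD41, CD9 and CD48, and the genes of CD41 and CD48 were called while that of CD9 was not. Itga2b, which encodes CD41 (chromosome 11, 102453297 to 102469883, GRCm38), was at 2.83 and 2.18 CPM in the CD41- CD9- libraries, against 155 and 112 CPM in the CD48dim libraries. Its log2 fold change was -5.73 ± 0.45 (SE, adjusted p = 0.000551, edgeR), and the CD48bright and CD34bright libraries, which were also sorted CD41+, held 93.8 and 64.3 CPM and 75.7 and 104 CPM. Cd48 (chromosome 1, 171681245 to 171705258) was at 221 and 246 CPM in the CD41- CD9- libraries, against 35.8 and 16.9 CPM in the CD48dim libraries, a log2 fold change of 3.14 ± 0.43 (SE, adjusted p = 0.00584, edgeR). The CD48bright libraries held 179 and 229 CPM, so the CD41- CD9- values lay beside theirs, although no CD48 gate is named for these cells. Cd9 was at 2.83 and 12 CPM in the CD41- CD9- libraries, against 26.6 and 53.6 CPM in the CD48dim libraries, and did not pass (log2 fold change -2.43 ± 0.67, adjusted p = 0.0841, or 0.0153 in the fit blocked on replicate number, edgeR). Kit, the receptor that both populations were sorted on, was read in all 4 libraries but was lower in the CD41- CD9- libraries, at 240.0 and 358 CPM in CD41- CD9-, against 771 and 1226 CPM in CD48dim (log2 fold change -1.74 ± 0.38, adjusted p = 0.036, edgeR). Cd34, gated dim in both, did not pass, at 238 and 396 CPM in CD41- CD9-, against 197 and 166 CPM in CD48dim. The Fc receptor genes behind the CD16/32 gate had counts in all 4 libraries and did not pass. Fcgr3 was at 15.3 and 6.46 CPM in CD41- CD9-, against 39.5 and 3.02 CPM in CD48dim. Fcgr2b was at 26.9 and 23.6 CPM in CD41- CD9-, against 13.5 and 21.2 CPM in CD48dim. Their reads can be shared with close relatives, so both levels are uncertain.

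Of 13177 tested genes, 530 passed an adjusted p below 0.05, which is 4.02% of them: 261 were higher in CD41- CD9- cells (1.98%) and 269 were lower (2.04%). Their median log2 fold change was 3.03 among the genes that were higher and -3.14 among those that were lower. Over all tested genes the median was -0.06 and the median absolute value 0.64. The smallest called changes were 1.39 higher and 1.33 lower in absolute log2, so the call itself selected for large changes. Over 16-fold changes made up 96 of the 261 and 94 of the 269. The shares of 1.98% and 2.04% are the background for each list count below from this fit. In a list, 1 or 2 calls say little. List counts with the replicate number as a block have a larger background, 509 higher and 456 lower of 13177 tested genes. For 22 of the higher genes neither CD48dim library held a single count, and for 14 of the lower genes neither CD41- CD9- library did. Without overlap between the 2 libraries of each population stood 43.6% of all tested genes, so a lack of overlap in 2 against 2 libraries says little alone. Fewer genes were called without replicate 1 or replicate 2 of CD41- CD9-, with the lone library assumed to vary like the other populations. Calls also fell when a CD48bright or CD34bright library was left out. The fall was thus not particular to the CD41- CD9- libraries, and its cause was not tested. The 4 compared libraries fitted alone gave 129 calls. Limma-voom with quality weights, which count less for libraries that stand apart, kept 49 of the 261 higher and 125 of the 269 lower calls. Most of the 530 calls were also lost without replicate 1 or replicate 2 of CD41- CD9-. Losses within a list below are to be read beside these losses over all calls. Without CD48dim replicate 1 or replicate 2 the lone CD48dim library was likewise assumed to vary like the other populations. The spread between the CD48dim duplicates then no longer entered the fit, so those calls cannot be weighed against it. With the replicate number as a block, 965 genes were called (509 higher, 456 lower), all 530 among them. Statements that a gene did not pass are from the fit without that block, and the block's values stand beside the named genes whose call it changes. In bulk samples, fewer cells of a type and less RNA of a gene in each cell cannot be told apart, which holds for every result that follows.

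**Figure D1:**
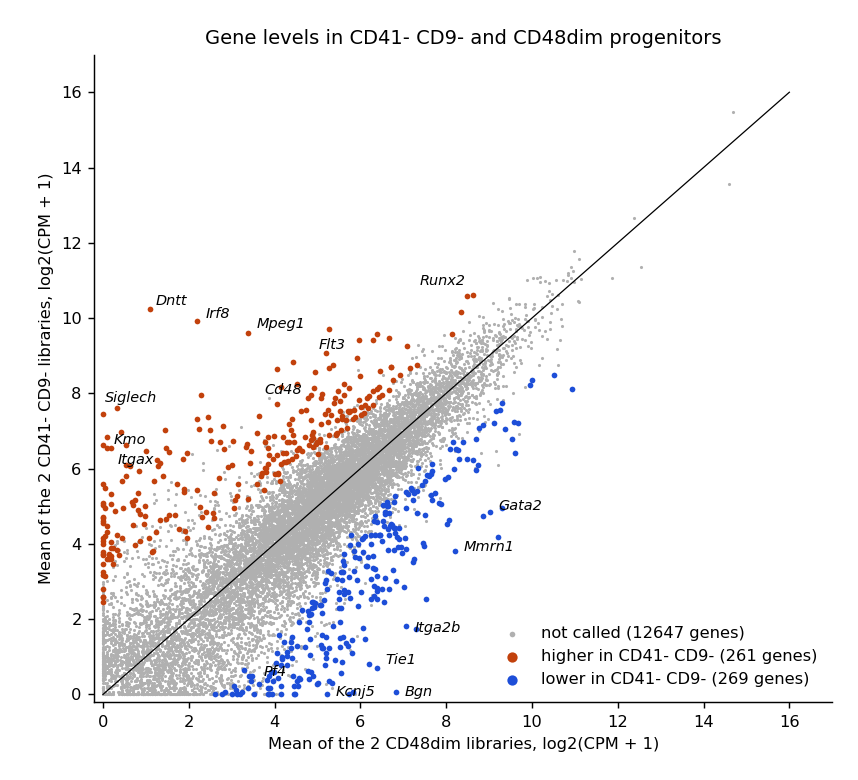
Mean level of each tested gene in the 2 CD41- CD9- libraries (vertical axis) and the 2 CD48dim libraries (horizontal axis), as log2(CPM + 1), with the line of equal levels. Orange points are the 261 genes called higher in CD41- CD9- cells and blue points the 269 called lower, and genes such as Siglech, Kcnj5 and Bgn lie on or near an axis, with almost no counts on one side.

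Upstream sequence is given for 6 genes that carry the contrast: the marker genes Itga2b and Cd48, the platelet chemokine gene Pf4 on the side of CD48dim, and the lymphoid genes Dntt and Il7r and the dendritic gene Siglech on the side of CD41- CD9-. Each is the 250 bases before the only start that a RefSeq promoter table (GRCm38.p6) holds for that gene, 5′ to 3′ on its strand. That start is not always the outer end of the annotated gene, so the Cd48 window lies inside the gene and the Il7r and Siglech windows overlap theirs in part. Capitals mark matches on either strand to 4 short motifs bound by families of blood transcription factors.
Itga2b (chr11:102469884-102470133, minus strand): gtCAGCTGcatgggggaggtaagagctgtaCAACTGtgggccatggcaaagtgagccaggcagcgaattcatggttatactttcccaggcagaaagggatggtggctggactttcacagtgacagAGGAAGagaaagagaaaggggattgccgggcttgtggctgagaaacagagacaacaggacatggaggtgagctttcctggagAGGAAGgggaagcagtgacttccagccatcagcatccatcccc
Pf4 (chr5:90772185-90772434, plus strand): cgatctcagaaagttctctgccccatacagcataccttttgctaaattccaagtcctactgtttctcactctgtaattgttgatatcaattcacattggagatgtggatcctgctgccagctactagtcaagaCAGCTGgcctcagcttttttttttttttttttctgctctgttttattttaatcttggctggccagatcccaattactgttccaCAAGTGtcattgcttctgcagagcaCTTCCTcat
Cd48 (chr1:171681742-171681991, plus strand): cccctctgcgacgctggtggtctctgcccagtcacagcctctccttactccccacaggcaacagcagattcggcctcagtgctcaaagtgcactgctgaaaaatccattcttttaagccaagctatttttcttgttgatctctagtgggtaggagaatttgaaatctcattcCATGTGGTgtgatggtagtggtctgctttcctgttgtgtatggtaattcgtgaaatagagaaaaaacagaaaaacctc
Dntt (chr19:41029025-41029274, plus strand): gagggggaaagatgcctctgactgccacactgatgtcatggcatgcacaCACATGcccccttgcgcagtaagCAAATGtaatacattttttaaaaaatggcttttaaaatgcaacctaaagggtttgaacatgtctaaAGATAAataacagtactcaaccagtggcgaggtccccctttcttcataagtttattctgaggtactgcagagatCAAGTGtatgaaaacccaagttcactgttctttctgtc
Il7r (chr15:9529877-9530126, minus strand): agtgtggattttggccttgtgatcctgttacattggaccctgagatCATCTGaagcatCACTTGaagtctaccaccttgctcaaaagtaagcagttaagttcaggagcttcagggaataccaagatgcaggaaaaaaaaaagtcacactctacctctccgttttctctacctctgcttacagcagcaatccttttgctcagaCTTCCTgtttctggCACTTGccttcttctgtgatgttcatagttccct
Siglech (chr7:55767934-55768183, plus strand): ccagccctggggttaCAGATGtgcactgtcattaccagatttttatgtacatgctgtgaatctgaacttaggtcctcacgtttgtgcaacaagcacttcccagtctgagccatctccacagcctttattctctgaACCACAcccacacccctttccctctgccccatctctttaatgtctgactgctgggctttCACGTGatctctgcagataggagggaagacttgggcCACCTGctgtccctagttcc
The motifs were AGATAA for GATA factors, AGGAAG for ETS factors, TGTGGT for RUNX factors and CANNTG, the E-box of basic helix-loop-helix factors. In the Cd48 window an E-box and a RUNX match share bases. In these 6 windows AGATAA occurred once, 112 to 107 bases before the start of Dntt. Its letters are not in the windows of Itga2b and Pf4, which were lower in CD41- CD9- cells.
Promoter windows were matched for 208 of the 261 higher genes (278 windows) and 219 of the 269 lower genes (299 windows). AGATAA was in 7.55% of the windows of higher genes, 10.4% of those of lower genes, 6.29% of those of all tested genes and 9.99% of all windows. The E-box was in 71.2%, 62.9%, 58.2% and 66.2% of the same sets, the ETS motif in 32.7%, 29.1%, 28.6% and 29.5%, and the RUNX motif in 12.2%, 13%, 11.2% and 14%. These matches are a description of letters, not of bound sites.

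Genes of lymphoid progenitors were higher in CD41- CD9- cells. Of 19 tested members of that list 12 were higher and 0 were lower, with a median log2 fold change of 3.22. Dntt, which adds nucleotides at the joints of rearranging antigen receptor genes (chromosome 19, 41029275 to 41059525), was at 1503 and 907 CPM in the CD41- CD9- libraries, against 1.83 and 0.412 CPM in the CD48dim libraries. Both CD41- CD9- libraries stood far above both CD48dim libraries, with a log2 fold change of 9.93 ± 0.85 (SE, adjusted p = 0.00083, edgeR). Il7r, the interleukin 7 receptor (chromosome 15, 9506159 to 9529941), was at 199.6 and 187 CPM in the CD41- CD9- libraries, against 0.367 and 0.137 CPM in the CD48dim libraries (log2 fold change 9.39 ± 0.77, adjusted p = 0.000589, edgeR). Rag1, a subunit of the recombinase that cuts those genes, was at 66.2 and 66.9 CPM in CD41- CD9-, against 0.807 and 2.06 CPM in CD48dim. Its partner Rag2 was at 109.6 and 75.7 CPM in CD41- CD9-, against 0.294 and 0 CPM in CD48dim. Reads of Rag2 cannot be told from those of the overlapping gene Iftap, so its level is uncertain. Ly6d, a surface protein that marks lymphoid progenitors on the way to B cells, was at 152 and 76.8 CPM in CD41- CD9-, against 0.147 and 0 CPM in CD48dim (log2 fold change 10.13 ± 0.93). The rest of the 12 spanned low and high levels. Blnk, a signalling adaptor, was at 64.9 and 56.4 CPM in CD41- CD9-, against 1.32 and 0.275 CPM in CD48dim. Satb1, a chromatin organizer, was at 599.5 and 470.3 CPM in CD41- CD9-, against 38.1 and 32.8 CPM in CD48dim. Cd52 and Notch1 were read in both populations and were higher in CD41- CD9-. Cd52, a small surface glycoprotein of lymphocytes, was at 104 and 102 CPM in CD41- CD9-, against 23 and 15.2 CPM in CD48dim. The receptor gene Notch1 was at 512 and 254 CPM in CD41- CD9-, against 65.4 and 108 CPM in CD48dim. Flt3 and Ccr9 were also called. Members that did not pass included Cd27, a receptor of lymphoid progenitors, at 255 and 164 CPM in CD41- CD9-, against 215 and 250.5 CPM in CD48dim. The common cytokine receptor chain Il2rg was at 89.9 and 77.9 CPM in CD41- CD9-, against 124 and 95.2 CPM in CD48dim. Of the 12, 7 and 9 were called without CD41- CD9- replicate 1 or replicate 2, and 4 by limma-voom with quality weights, which count less for libraries that stand apart.

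The lists of committed lymphocyte lineages moved the same way in fewer members. In the B cell lineage list 3 of 15 tested members were higher and 0 lower (median log2 fold change 2.17). All 3 were near 0 in CD48dim. Fcrla, an Fc receptor-like gene of B cells, was at 25.9 and 12.3 CPM in CD41- CD9-, against 0.147 and 0 CPM in CD48dim. The Ras exchange factor Rasgrp3 was at 25 and 11 CPM in CD41- CD9-, against 0.367 and 0.137 CPM in CD48dim. The pre-B cell gene Vpreb3 was at 16.8 and 9.53 CPM in CD41- CD9-, against 0.22 and 0.275 CPM in CD48dim. The defining transcription factor gene Ebf1 was at 31.9 and 42.8 CPM in the CD41- CD9- libraries, against 6.53 and 12.1 CPM in the CD48dim libraries and did not pass (log2 fold change 2.01 ± 0.64, adjusted p = 0.125, edgeR). Pax5, which follows it in B cells, did not pass either, at 7.08 and 1.94 CPM in CD41- CD9-, against 1.18 and 0 CPM in CD48dim. In the T, NK and innate lymphoid list 7 of 18 tested members were higher and 0 lower (median 3.18). Klrd1, the CD94 chain of NK cell receptors, was at 29.3 and 20.8 CPM in the CD41- CD9- libraries with no count in the CD48dim libraries. It was at least 174-fold higher against a floor of 3 counts over the 2 CD48dim libraries together, and every such bound uses this floor for the population at 0. Cd7 was at 98.8 and 75.1 CPM in CD41- CD9-, against 1.98 and 0 CPM in CD48dim. Nfil3, a transcription factor of innate lymphoid development, was at 68 and 31.8 CPM in CD41- CD9-, against 1.98 and 0.55 CPM in CD48dim. The kinase gene Lck was at 44.1 and 41.5 CPM in CD41- CD9-, against 4.04 and 1.37 CPM in CD48dim. Klrk1 and Cd244, receptors of NK cells, were also called. Tcf7, the T cell factor TCF-1, differed between the CD41- CD9- libraries (68.8 and 12.3 CPM in CD41- CD9-, against 3.89 and 1.51 CPM in CD48dim) and passed narrowly (adjusted p = 0.0452, edgeR). The CD3 genes of the T cell receptor were low in all 4 libraries. Cd3e was at 1.81 and 3.31 CPM in CD41- CD9-, against 0.587 and 0 CPM in CD48dim. Cd3g was at 1.42 and 0 CPM in CD41- CD9-, against 0 and 0 CPM in CD48dim. In the mature T cell list 2 of 7 tested genes were higher and 0 lower, both of them surface coreceptors. Cd28 was at 44.1 and 34.7 CPM in CD41- CD9-, against 0.294 and 0 CPM in CD48dim. Cd6 was at 10.9 and 4.76 CPM in CD41- CD9-, against 0.0734 and 0 CPM in CD48dim. Without CD41- CD9- replicate 1, 0 of the 3 B cell members and 0 of the 7 T, NK and innate lymphoid members were called, and without replicate 2, 0 and 3. By limma-voom with quality weights 0 of the 3 and 0 of the 7 were called.

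Dendritic cell genes were among the largest changes. Of 17 tested members of the plasmacytoid dendritic list 6 were higher and 0 lower (median log2 fold change 2.11). Siglech, a lectin of plasmacytoid dendritic cells (chromosome 7, 55768154 to 55779448), was at 199 and 151 CPM in the CD41- CD9- libraries, against 0 and 0 CPM in the CD48dim libraries, at least 1221-fold higher (adjusted p = 0.00345, edgeR). Cox6a2, a cytochrome oxidase subunit found in these cells, was at 36.2 and 27.2 CPM in CD41- CD9-, against 0 and 0 CPM in CD48dim, at least 221-fold higher. Runx2, a transcription factor of the lineage, was abundant in both populations, at 1535 and 1524 CPM in CD41- CD9-, against 307 and 404 CPM in CD48dim (log2 fold change 2.11 ± 0.33, adjusted p = 0.0109, edgeR). The other 3 were under 7 CPM in both CD48dim libraries. The transcription factor gene Spib was at 102 and 49.4 CPM in CD41- CD9-, against 4.48 and 0.825 CPM in CD48dim. The chemokine receptor gene Ccr9 was at 101 and 67.5 CPM in CD41- CD9-, against 2.86 and 2.89 CPM in CD48dim. Atp1b1, a subunit of the sodium pump, was at 152 and 164 CPM in CD41- CD9-, against 6.46 and 0.687 CPM in CD48dim. Members that did not pass included Bst2, an antiviral surface protein, at 95.8 and 73.5 CPM in CD41- CD9-, against 51 and 8.66 CPM in CD48dim. In the conventional dendritic list 7 of 20 tested members were higher and 0 lower (median 2.52). Itgax, the integrin chain CD11c, was at 85.2 and 98.5 CPM in the CD41- CD9- libraries, against 0.147 and 0 CPM in the CD48dim libraries (log2 fold change 9.82 ± 0.75, adjusted p = 0.000551, edgeR). Kmo, an enzyme of tryptophan breakdown, was at 109.6 and 84.6 CPM in CD41- CD9- with no count in CD48dim. Cd209a, a lectin of the DC-SIGN family, was at 22.6 and 23.8 CPM in CD41- CD9- with no count in CD48dim. Clec9a, a receptor for dead cells on dendritic precursors and cDC1, was at 57 and 91.9 CPM in CD41- CD9-, against 0.0734 and 2.75 CPM in CD48dim. The lysosomal amidase gene Naaa changed least of the 7, at 19.4 and 22.4 CPM in CD41- CD9-, against 4.04 and 4.95 CPM in CD48dim. Ifi205, whose reads close relatives can share, was at 17.9 and 26.7 CPM in CD41- CD9-, against 0 and 0 CPM in CD48dim. The class II antigen presentation genes H2-Aa and H2-Ab1 did not pass. H2-Aa was at 104 and 63.9 CPM in CD41- CD9-, against 34.1 and 21.9 CPM in CD48dim. H2-Ab1 was at 60 and 55.4 CPM in CD41- CD9-, against 40.9 and 20.1 CPM in CD48dim. H2-Ob, a class II gene outside the list, was higher, at 260.2 and 238 CPM in CD41- CD9-, against 33 and 63.1 CPM in CD48dim. Zbtb46, Batf3 and Xcr1, genes of differentiated conventional dendritic cells, were low in all 4 libraries. Zbtb46 was at 4.41 and 4.68 CPM in CD41- CD9-, against 4.7 and 5.63 CPM in CD48dim. Batf3 was at 1.1 and 0.404 CPM in CD41- CD9-, against 0 and 0 CPM in CD48dim. Of the 6 plasmacytoid genes 2 and 3 were called without CD41- CD9- replicate 1 or replicate 2, and of the 7 conventional dendritic genes 5 either way. By limma-voom with quality weights 1 of the 6 and 1 of the 7 were called. The replicate block gave 9 higher plasmacytoid genes, and 11 higher and 1 lower conventional dendritic genes, H2-Aa among the higher (adjusted p = 0.0495, edgeR).

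Of the lists on that side, the monocyte and macrophage list kept most of its calls when a library was left out. Of 24 tested members 10 were higher and 0 lower (median log2 fold change 2.84), and without CD41- CD9- replicate 1 or replicate 2, 9 and 10 of them were called. Irf8, the transcription factor of monocyte and dendritic progenitors (chromosome 8, 120736358 to 120756694), was at 1104 and 820.4 CPM in the CD41- CD9- libraries, against 6.83 and 0.275 CPM in the CD48dim libraries. The CD48dim libraries differed from each other by a larger factor than those of CD41- CD9-, and both lay far below (log2 fold change 7.99 ± 1.02, adjusted p = 0.00445, edgeR). Mpeg1, the pore protein perforin-2 of phagocytes, was at 879.9 and 664 CPM in the CD41- CD9- libraries, against 7.56 and 11.3 CPM in the CD48dim libraries (log2 fold change 6.36 ± 0.42, adjusted p = 0.000551, edgeR). Ly86, which pairs with a Toll-like receptor homologue on B cells and phagocytes, was at 281 and 214 CPM in CD41- CD9-, against 1.47 and 6.32 CPM in CD48dim. The fractalkine receptor gene Cx3cr1 was at 41.5 and 45.4 CPM in CD41- CD9-, against 0.0734 and 0 CPM in CD48dim. The cathepsin gene Ctss was at 196 and 131 CPM in CD41- CD9-, against 6.75 and 2.2 CPM in CD48dim. The coagulation factor gene F13a1 was at 442 and 312 CPM in CD41- CD9-, against 28.4 and 30.8 CPM in CD48dim. Both had counts in every CD48dim library. The transcription factor gene Klf4 was at 139 and 88.6 CPM in CD41- CD9-, against 10.4 and 16.5 CPM in CD48dim, and the other members called were Csf1r, Ms4a6c and Emb. Ccr2, a chemokine receptor of monocytes, did not pass and was far apart in the CD48dim libraries, at 257 and 208 CPM in CD41- CD9-, against 0.147 and 27.2 CPM in CD48dim (adjusted p = 0.127, edgeR). Lyz2 and Prtn3, genes of granulocyte and monocyte progenitors, varied within both populations and did not pass. Lyz2 was at 491 and 124 CPM in CD41- CD9-, against 565 and 276 CPM in CD48dim. Prtn3 was at 294 and 144 CPM in CD41- CD9-, against 675 and 97.3 CPM in CD48dim. The mature macrophage marker Adgre1, which encodes F4/80, was low in all 4 libraries, at 8.03 and 1.45 CPM in CD41- CD9-, against 1.47 and 0 CPM in CD48dim.

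**Figure D2:**
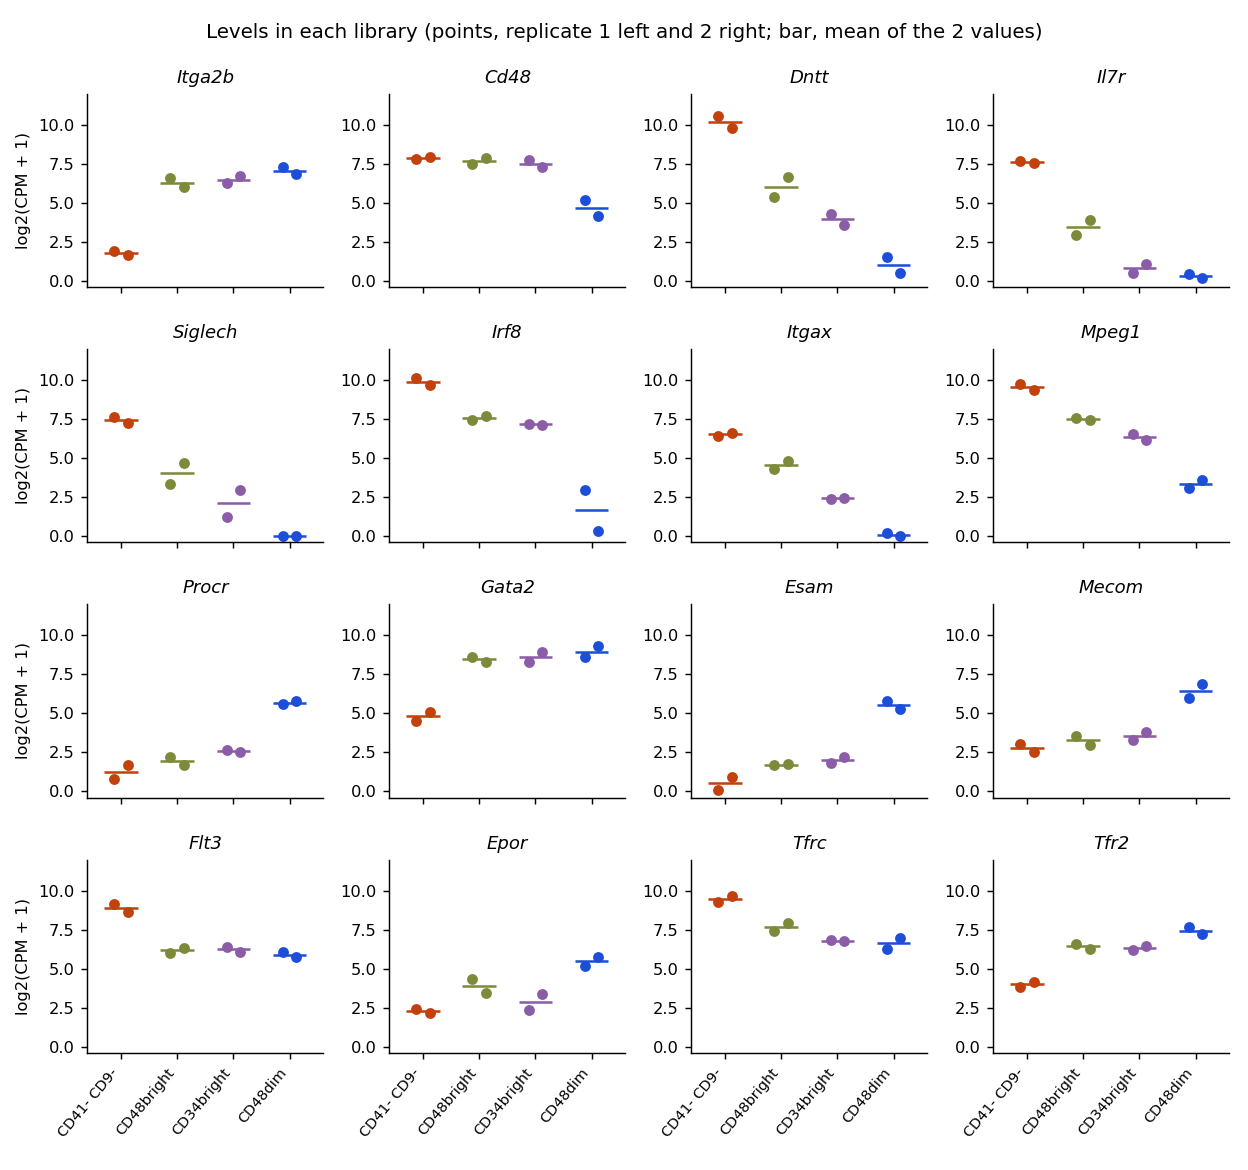
Level of 16 genes in each of the 8 libraries, as log2(CPM + 1), with the populations from left to right CD41- CD9-, CD48bright, CD34bright and CD48dim. Points are libraries and bars the mean of the 2 plotted values; Dntt, Il7r, Siglech, Irf8, Itgax and Mpeg1 were highest in CD41- CD9- and lowest in CD48dim, whereas Itga2b and Gata2 were low only in CD41- CD9- and Esam and Mecom were high only in CD48dim among the 4 populations.

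Stem cell genes were lower in CD41- CD9- cells. Of 23 tested members 12 were lower and 0 higher, and all 23 had a negative log2 fold change (median -2.59). Pdzk1ip1, a small membrane protein gene used to mark stem cells, was at 1.18 and 0.323 CPM in CD41- CD9-, against 98.6 and 47.3 CPM in CD48dim (log2 fold change -6.58 ± 0.82, adjusted p = 0.00426, edgeR). Esam, Procr and Tek, surface proteins shared by stem cells and endothelium, were under 3 CPM in both CD41- CD9- libraries. The adhesion molecule Esam was at 0.0787 and 0.888 CPM in CD41- CD9-, against 53.7 and 38.1 CPM in CD48dim. The protein C receptor Procr was at 0.708 and 2.18 CPM in CD41- CD9-, against 47.7 and 54.4 CPM in CD48dim. The angiopoietin receptor Tek was at 2.68 and 0.162 CPM in CD41- CD9-, against 33.2 and 56.9 CPM in CD48dim. The transcription factors Mecom, Hlf and Meis1 were lower, and Hlf and Meis1 stayed above 60 CPM in both CD41- CD9- libraries. Mecom was at 7.08 and 4.84 CPM in CD41- CD9-, against 63.8 and 116 CPM in CD48dim. Hlf was at 68.8 and 223 CPM in CD41- CD9-, against 602 and 1032 CPM in CD48dim. Meis1, a partner of homeobox proteins, showed the smallest change of the 3, at 73 and 77.9 CPM in CD41- CD9-, against 190.1 and 438 CPM in CD48dim. Slamf1, the CD150 gene used with Cd48 to gate stem cells, was at 1.18 and 2.42 CPM in CD41- CD9-, against 15.7 and 39 CPM in CD48dim (log2 fold change -3.92 ± 0.85, adjusted p = 0.0369, edgeR). Members that did not pass included Hoxa9, a homeobox factor of immature cells, at 41.2 and 36.8 CPM in CD41- CD9-, against 50.1 and 60 CPM in CD48dim. Ly6a, which encodes the stem cell antigen Sca-1 and shares reads in its family, was at 48.6 and 18.5 CPM in CD41- CD9-, against 66.6 and 10 CPM in CD48dim. Of the 12, 4 and 5 were called without CD41- CD9- replicate 1 or replicate 2, and 9 with quality weights.

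Megakaryocyte and platelet genes moved the same way. Of 22 tested members 9 were lower and 0 higher (median log2 fold change -3.05). Mmrn1, a platelet granule protein gene, was at 8.81 and 17.5 CPM in the CD41- CD9- libraries, against 190.4 and 401 CPM in the CD48dim libraries (log2 fold change -4.49 ± 0.65, adjusted p = 0.00804, edgeR). Pf4, the platelet chemokine (chromosome 5, 90772435 to 90773383), had no count in either CD41- CD9- library and 19.4 and 7.14 CPM in the CD48dim libraries, which makes it at least 111-fold lower. Of the platelet surface receptors, Gp1ba and Gp9 were lower. Gp1ba, a chain of the von Willebrand factor receptor, was at 1.81 and 3.31 CPM in CD41- CD9-, against 20.6 and 59.4 CPM in CD48dim. Gp9, another chain of it, was at 1.34 and 2.42 CPM in CD41- CD9-, against 18.3 and 76.5 CPM in CD48dim. The receptors for soluble agonists kept counts in both CD41- CD9- libraries. The thrombin receptor F2r was at 22.7 and 21.3 CPM in CD41- CD9-, against 157 and 362 CPM in CD48dim. The ADP receptor P2ry1 was at 7.48 and 9.45 CPM in CD41- CD9-, against 26.5 and 65.7 CPM in CD48dim. Trpc6, a cation channel, was at 0.315 and 0.162 CPM in CD41- CD9-, against 29.4 and 49.9 CPM in CD48dim. Treml1, a receptor of platelet granules, had no count in CD41- CD9- and 10.1 and 1.65 CPM in CD48dim. Rab27b, which serves granule secretion, was at 0.157 and 0.484 CPM in CD41- CD9-, against 27.5 and 26.7 CPM in CD48dim. Itgb3, the partner chain of CD41, did not pass, at 40.8 and 20.3 CPM in CD41- CD9-, against 103 and 59.6 CPM in CD48dim. Vwf, von Willebrand factor, did not pass, at 3.23 and 2.26 CPM in CD41- CD9-, against 10.7 and 18.3 CPM in CD48dim. Other members were at or near 0 in all 4 libraries. The platelet basic protein gene Ppbp was at 0 and 0 CPM in CD41- CD9-, against 0.954 and 2.06 CPM in CD48dim, and the collagen receptor gene Gp6 had no count in any of them. Of the 9, none was called without CD41- CD9- replicate 1, and 2 without replicate 2, while quality weights left 6.

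Erythroid, mast cell and basophil genes held fewer calls. In the erythroid list 4 of 20 tested members were lower and 0 higher (median log2 fold change -1.73). Epor, the erythropoietin receptor, was at 4.33 and 3.55 CPM in the CD41- CD9- libraries, against 35.6 and 52.9 CPM in the CD48dim libraries (log2 fold change -3.48 ± 0.65, adjusted p = 0.0211, edgeR). The other 3 kept counts in CD41- CD9-. The carbonic anhydrase gene Car2 was at 173 and 199.6 CPM in CD41- CD9-, against 588 and 625 CPM in CD48dim. The nuclear protein gene Hemgn was at 19.8 and 26.6 CPM in CD41- CD9-, against 82.2 and 75.6 CPM in CD48dim. Samd14 was at 3.54 and 3.31 CPM in CD41- CD9-, against 34.4 and 21.7 CPM in CD48dim. Klf1, the master factor of red cell genes, did not pass, at 11.9 and 5.17 CPM in CD41- CD9-, against 28.9 and 2.06 CPM in CD48dim. Car1, another carbonic anhydrase, did not pass, at 292 and 301 CPM in CD41- CD9-, against 337 and 357 CPM in CD48dim. None of the 4 was called without either CD41- CD9- library, 1 was with quality weights, and 7 erythroid members were lower with the replicate block. In the mast cell, basophil and eosinophil list 3 of 16 tested members were lower and 0 higher (median -2.73): Gata2 and the 2 IgE receptor chain genes. Fcer1a was at 0.157 and 0.0807 CPM in CD41- CD9-, against 2.79 and 16.1 CPM in CD48dim. Ms4a2 was at 1.42 and 0.969 CPM in CD41- CD9-, against 5.14 and 32 CPM in CD48dim. Fcer1a was at 55.3 and 32.9 CPM in CD48bright and 29.5 and 67.5 CPM in CD34bright, above all 4 libraries compared. Gata2 was called without either CD41- CD9- library, and the receptor chain genes were not. In this list the replicate block gave 7 lower members and 1 higher, and quality weights left 1 of the 3. Protease genes of these lineages did not pass. Cpa3 was at 44.5 and 23.7 CPM in CD41- CD9-, against 12.9 and 58.3 CPM in CD48dim. Mcpt8 was at 3.07 and 7.18 CPM in CD41- CD9-, against 19.1 and 3.98 CPM in CD48dim.

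The transcription factor lists split by lineage. Of 18 tested GATA, FOG and erythro-megakaryocytic factors 4 were lower and 0 higher (median log2 fold change -1.14). Gata2 (chromosome 6, 88193891 to 88207032) was at 21.9 and 33.3 CPM in the CD41- CD9- libraries, against 385 and 646 CPM in the CD48dim libraries (log2 fold change -4.22 ± 0.45, adjusted p = 0.00213, edgeR). The other 3 are its partners or fellow factors of the erythroid and megakaryocytic lineages. Zfpm1, the GATA cofactor FOG1, was at 8.73 and 6.46 CPM in CD41- CD9-, against 93.6 and 95 CPM in CD48dim. Tal1 was at 29.4 and 35.7 CPM in CD41- CD9-, against 288 and 180.1 CPM in CD48dim. Gfi1b was at 21.9 and 21.3 CPM in CD41- CD9-, against 131 and 81.5 CPM in CD48dim. Gata1 did not pass, at 8.66 and 1.29 CPM in CD41- CD9-, against 35.7 and 29.4 CPM in CD48dim (adjusted p = 0.0851, edgeR). Lmo2, which bridges TAL1 and GATA proteins, did not pass, at 181 and 267 CPM in CD41- CD9-, against 461 and 821 CPM in CD48dim. Runx1, which all these lineages use, was at 440.0 and 512 CPM in CD41- CD9-, against 243 and 657 CPM in CD48dim. Of 22 tested lymphoid and dendritic factors 5 were higher and 0 lower (median 2.06), namely Irf8, Satb1, Runx2, Spib and Tcf7. Ikzf1 and Mef2c, which are active from early lymphoid progenitors on, did not pass. Ikzf1 was at 1185 and 1219 CPM in CD41- CD9-, against 609.7 and 568 CPM in CD48dim. Mef2c was at 495 and 647 CPM in CD41- CD9-, against 154 and 347 CPM in CD48dim. Of 14 tested myeloid factors 1 was higher, Klf4, and 0 lower (median -0.22). Spi1, which encodes PU.1, did not pass, at 114 and 61.2 CPM in CD41- CD9-, against 57.8 and 31.3 CPM in CD48dim. Cebpa, which granulocyte development needs, did not pass, at 16.3 and 8.48 CPM in CD41- CD9-, against 5.36 and 4.81 CPM in CD48dim. Without CD41- CD9- replicate 1, Gata2 alone of the 4 GATA and FOG genes and 2 of the 5 lymphoid and dendritic factors were called. The replicate block gave 9 lower and 1 higher of the GATA and FOG list and 9 higher of the lymphoid and dendritic list. Under it Gata1, Lmo2, Ikzf1 and Mef2c passed, with adjusted p = 0.0318, 0.0131, 0.0364 and 0.03 (edgeR).

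**Figure D3:**
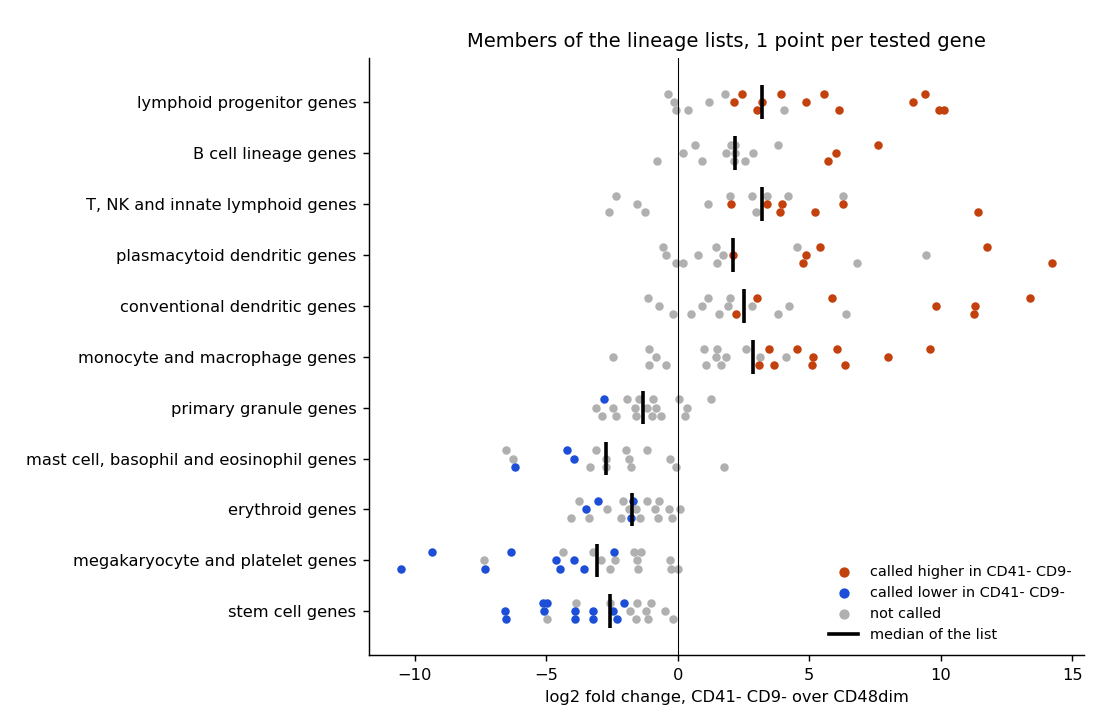
Log2 fold change of CD41- CD9- over CD48dim for each tested member of 11 lineage lists, 1 point per gene and 1 row per list, with the median of the list as a black bar. Orange points were called higher, blue points lower and grey points not called; the 6 lymphoid, dendritic and monocyte lists have medians of 2.11 to 3.22 and no blue point, and the other 5 have medians of -3.05 to -1.32 and no orange point.

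Receptors for blood cytokines divided in the same way. Of 30 tested receptor genes 8 were higher and 3 lower, with a median log2 fold change of 0.71. Flt3, the receptor for FLT3 ligand (chromosome 5, 147330741 to 147400489), was at 571 and 403 CPM in the CD41- CD9- libraries, against 66.4 and 52.9 CPM in the CD48dim libraries (log2 fold change 3.03 ± 0.36, adjusted p = 0.00333, edgeR), and the CD48bright and CD34bright libraries were near CD48dim, at 62.4 and 80.9 CPM and 83.6 and 67.1 CPM. Csf1r, the receptor for macrophage colony-stimulating factor, was at 153 and 113 CPM in CD41- CD9-, against 6.09 and 1.37 CPM in CD48dim (log2 fold change 5.10 ± 0.63). Among chains that signal through or beside gp130, 3 were higher. Il6st, gp130 itself, was at 443 and 370.0 CPM in CD41- CD9-, against 47 and 28.7 CPM in CD48dim (log2 fold change 3.42 ± 0.36). Il6ra was at 117 and 91.5 CPM in CD41- CD9-, against 27.2 and 14.6 CPM in CD48dim. Lifr, the receptor for leukaemia inhibitory factor, was at 71.4 and 68 CPM in CD41- CD9-, against 0.514 and 2.47 CPM in CD48dim (log2 fold change 5.61 ± 0.81). Il27ra, another partner of gp130, did not pass, at 14.4 and 10.5 CPM in CD41- CD9-, against 46 and 48.2 CPM in CD48dim. The interleukin 1 receptor gene Il1r1 was at 111 and 121 CPM in CD41- CD9-, against 16.6 and 13.3 CPM in CD48dim. Csf2rb2 was at 156 and 156 CPM in CD41- CD9-, against 36.2 and 19.5 CPM in CD48dim, and the split of reads between it and its near copy Csf2rb is uncertain. Epor and Kit were among the lower receptors. Per transcript length, Kit was at a mean of 116 TPM in CD41- CD9- cells, against 454 TPM in CD48dim cells. Flt3 was at 269 TPM and Il7r at 124 TPM in CD41- CD9- cells, against 36.6 and 0.165 TPM in CD48dim cells. The granulocyte receptor Csf3r did not pass, at 74.6 and 139 CPM in CD41- CD9-, against 190.3 and 269 CPM in CD48dim. The interferon receptor Ifnar1 did not pass, at 172 and 148 CPM in CD41- CD9-, against 93 and 77.8 CPM in CD48dim. Of the 8 higher receptors 4 and 5 were called without CD41- CD9- replicate 1 or replicate 2, and of the 3 lower ones 1 in both cases. Quality weights left 4 of the 8 and 2 of the 3. The replicate block gave 11 higher and 5 lower receptors, with Csf3r and Il27ra among the lower (adjusted p = 0.0458 and 0.0481, edgeR). Csf2rb and Ifnar2 were among the higher with the block (adjusted p = 0.0205 and 0.0364, edgeR).

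**Figure D4:**
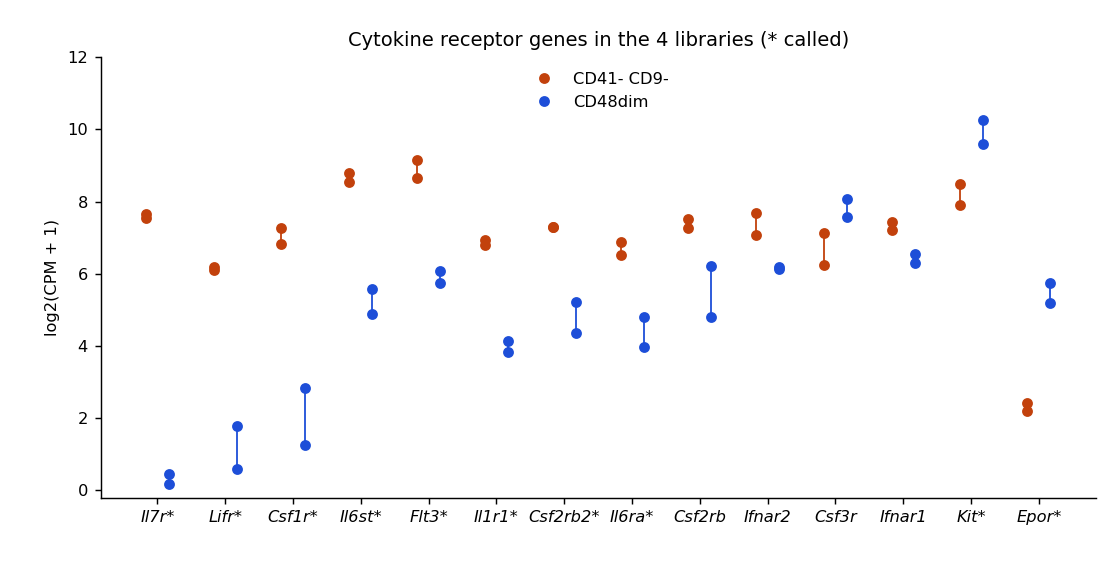
Level of 14 cytokine receptor genes in the 2 CD41- CD9- libraries (orange, left of each gene) and the 2 CD48dim libraries (blue, right), as log2(CPM + 1), with a line between the 2 libraries of a population and an asterisk on genes that were called. Il7r, Lifr and Csf1r lie near 0 to 3 in CD48dim, Epor and Kit run the other way, and Csf2rb, Ifnar2, Csf3r and Ifnar1 did not pass without the replicate block.

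Surface and adhesion genes changed in both directions within a family. Of 20 tested integrin chains 5 were higher and 2 lower (median log2 fold change -0.06). Beside Itgax, 4 others were higher. Itgb7, a chain of gut homing integrins, was at 147 and 97.6 CPM in CD41- CD9-, against 14.7 and 7.42 CPM in CD48dim. Itgal, the alpha chain of LFA-1, was at 285 and 247 CPM in CD41- CD9-, against 77.7 and 78.3 CPM in CD48dim. Itgad was at 4.72 and 7.18 CPM in CD41- CD9- with no count in CD48dim. Itga1, which overlaps Pelo in the genome and is uncertain, was at 18.3 and 24.1 CPM in CD41- CD9-, against 0.147 and 0 CPM in CD48dim. Itga5, the fibronectin receptor chain, was lower, at 60 and 39.1 CPM in CD41- CD9-, against 177 and 186 CPM in CD48dim. The other lower chain was Itga2b, which encodes CD41, a protein on which the populations were parted. The chains shared by many integrins did not pass. Itgb1 was at 209 and 204 CPM in CD41- CD9-, against 173 and 188 CPM in CD48dim. Itgb2 was at 60.7 and 61.7 CPM in CD41- CD9-, against 40.5 and 62.8 CPM in CD48dim. Of 19 tested tetraspanins 2 were higher and 3 lower (median -0.60). Cd53, a leukocyte tetraspanin, was higher, at 448 and 414 CPM in CD41- CD9-, against 53.5 and 26.2 CPM in CD48dim. Tspan2 was higher, at 244 and 225 CPM in CD41- CD9-, against 36.1 and 47 CPM in CD48dim. Cd63, found in granules and lysosomes, was lower, at 8.03 and 18.7 CPM in CD41- CD9-, against 153 and 47 CPM in CD48dim, and Tspan4 and Tspan32 were lower too. Of 10 tested SLAM family genes 3 were higher and 1, Slamf1, was lower (median 2.17). The higher ones were Cd48, its ligand Cd244 and Slamf7, and Cd48 encodes a protein on which the CD48dim cells were gated. Cd244 was at 71.1 and 71.8 CPM in CD41- CD9-, against 10.9 and 24.6 CPM in CD48dim. Slamf7 was at 31.1 and 20.7 CPM in CD41- CD9-, against 1.25 and 0.687 CPM in CD48dim. Of 23 tested chemokine and lipid mediator receptors 5 were higher and 0 lower (median 1.14). Cxcr4, which holds cells in the marrow, was at 150.4 and 148 CPM in the CD41- CD9- libraries, against 28.9 and 45.5 CPM in the CD48dim libraries (log2 fold change 2.01 ± 0.36, adjusted p = 0.0191, edgeR). The prostaglandin E2 receptor gene Ptger4 was at 89.9 and 93 CPM in CD41- CD9-, against 28.1 and 17.6 CPM in CD48dim. Cx3cr1 and Ccr9 were also called. Without CD41- CD9- replicate 1, 3 of the 5 higher integrins, both higher tetraspanins and 1 of the 5 chemokine and lipid receptors were called. Quality weights left 0 of the 5 higher integrins, both higher tetraspanins, 1 of the 3 higher SLAM genes and 0 of the 5 chemokine and lipid receptors. With the block 2 SLAM genes were lower, Cd84 added to Slamf1 (adjusted p = 0.0432, edgeR).

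Genes of DNA replication and mitosis showed small changes with few calls, beside 1.98% of all tested genes that were higher and 2.04% lower. All 24 tested replication genes had a positive log2 fold change (median 0.79), but only Rrm2, a subunit of ribonucleotide reductase, passed, at 169 and 166 CPM in the CD41- CD9- libraries, against 58.5 and 35 CPM in the CD48dim libraries (log2 fold change 1.84 ± 0.38, adjusted p = 0.0322, edgeR). Of 24 tested mitosis genes 2 were higher and 0 lower (median 1.05), both of them cyclins. Ccna2 was at 250.2 and 303 CPM in CD41- CD9-, against 95.4 and 69 CPM in CD48dim. Ccnb1 was at 91 and 75.8 CPM in CD41- CD9-, against 27.9 and 35 CPM in CD48dim. Some uncalled members differed widely between the CD48dim libraries. The helicase subunit Mcm5 was at 188 and 151 CPM in CD41- CD9-, against 175 and 14.2 CPM in CD48dim. The proliferation gene Mki67 was at 1789 and 2476 CPM in CD41- CD9-, against 959 and 2916 CPM in CD48dim. CD48dim replicate 2 was the library with the fewest counts and the most Malat1, and the part of this in the cell cycle values was not tested. None of the 3 called genes was called without either CD41- CD9- library or with quality weights, while the replicate block called 6 replication and 7 mitosis genes, all higher. Among 17 tested cell cycle inhibitors and imprinted quiescence genes 1 was higher and 1 lower. Cdkn1a, the p21 inhibitor, was higher, at 101 and 33.7 CPM in CD41- CD9-, against 6.46 and 7.7 CPM in CD48dim. The imprinted adaptor gene Grb10 was lower, at 6.77 and 5.57 CPM in CD41- CD9-, against 62.6 and 102 CPM in CD48dim. Mycl, a MYC family member in the list of G1 regulators, was higher, at 34.9 and 15.7 CPM in CD41- CD9- with no count in CD48dim, and the other 16 tested genes of that list did not pass. The block added 1 higher gene to each of these lists, Cdkn2c to the inhibitors and Ccnd1 to the G1 regulators (adjusted p = 0.0411 and 0.00812, edgeR).

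The 2 transferrin receptor genes changed in opposite directions. Of 23 tested haem and iron genes 1 was higher and 3 were lower (median log2 fold change -0.54). Tfrc, the transferrin receptor CD71 of dividing cells (chromosome 16, 32608896 to 32632794), was at 609.8 and 797 CPM in the CD41- CD9- libraries, against 76.7 and 124 CPM in the CD48dim libraries (log2 fold change 2.81 ± 0.38, adjusted p = 0.00554, edgeR). Tfr2, the second transferrin receptor, ran the opposite way, at 13.3 and 16.9 CPM in the CD41- CD9- libraries, against 202 and 148 CPM in the CD48dim libraries (log2 fold change -3.53 ± 0.36, adjusted p = 0.00199, edgeR). The iron exporter gene Slc40a1 was lower, at 1.02 and 1.13 CPM in CD41- CD9-, against 19 and 35.5 CPM in CD48dim. Urod, an enzyme of haem synthesis, was lower, at 27 and 24.5 CPM in CD41- CD9-, against 76.6 and 84.5 CPM in CD48dim. The ferritin gene Fth1, for iron storage, did not pass, at 754 and 554 CPM in CD41- CD9-, against 667 and 214 CPM in CD48dim. Without CD41- CD9- replicate 1 or replicate 2, Tfrc was called, and 1 of the 3 lower genes was. Under the block 5 genes of the list were lower.

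In the list of antigen receptor recombination and end joining, of 16 tested genes the 3 that were higher were Dntt, Rag1 and Rag2, which begin and modify the joints, and 0 were lower (median log2 fold change 0.26). The end joining genes, which serve DNA repair in all cells, did not pass. Xrcc6, which encodes Ku70, was at 107 and 88 CPM in CD41- CD9-, against 54.5 and 68.4 CPM in CD48dim. The kinase gene Prkdc was at 137 and 184 CPM in CD41- CD9-, against 113 and 233 CPM in CD48dim. In the cytoskeleton list 1 of 23 tested genes was higher and 3 were lower. Tpm4, a tropomyosin, was higher, at 449 and 355 CPM in the CD41- CD9- libraries, against 16.1 and 15.1 CPM in the CD48dim libraries (log2 fold change 4.69 ± 0.38, adjusted p = 0.000589, edgeR). The LIM protein gene Fhl1 had no count in CD41- CD9- and 27.7 and 14.6 CPM in CD48dim. Camsap3, which binds microtubule ends, was lower, at 1.65 and 3.15 CPM in CD41- CD9-, against 42.4 and 90.1 CPM in CD48dim. Phldb2 was lower, at 0 and 0.404 CPM in CD41- CD9-, against 11.7 and 11.1 CPM in CD48dim. Of 23 tested genes of the TGF-beta and BMP pathway 1 was higher and 2 were lower. The inhibitor Smad7 was higher, at 48.2 and 45.8 CPM in CD41- CD9-, against 11.1 and 11.1 CPM in CD48dim. The coreceptor Tgfbr3 was lower, at 7.48 and 13.3 CPM in CD41- CD9-, against 110.0 and 186 CPM in CD48dim. Ltbp3, which holds the latent ligand, was lower, at 15.4 and 27.2 CPM in CD41- CD9-, against 116 and 68.7 CPM in CD48dim. Of 17 tested Notch genes Notch1 was called, and its target gene Hes1 was not, at 9.68 and 0.646 CPM in CD41- CD9-, against 1.76 and 0.962 CPM in CD48dim. Of 21 tested Wnt genes Tcf7 and Ctnnd2 were higher. Ctnnd2, a delta catenin, was at 47.6 and 46 CPM in CD41- CD9- with no count in CD48dim. Interferon-stimulated genes (24 tested), immediate early genes (21) and glycolysis genes (24) held 0 higher and 1, 1 and 2 lower genes. Over all tested genes 1.98% were higher and 2.04% lower. So few calls in a list say little about the list as a whole. Ddx58, the RNA sensor RIG-I, was at 34.9 and 42.7 CPM in CD41- CD9-, against 102 and 171 CPM in CD48dim. The phosphatase gene Dusp1 was at 229.9 and 193 CPM in CD41- CD9-, against 637 and 631 CPM in CD48dim. The enolase gene Eno2 had no count in CD41- CD9- and 1.69 and 14.6 CPM in CD48dim. The hexokinase gene Hk1 was at 39.6 and 48.7 CPM in CD41- CD9-, against 160.5 and 129.6 CPM in CD48dim. Without CD41- CD9- replicate 1 or replicate 2, Tpm4, Ctnnd2, Dntt and Rag2 were called in both cases, and Phldb2, Tgfbr3, Notch1 and Tcf7 only without replicate 2. The block brought the higher genes to 2 in the cytoskeleton, TGF-beta and Notch lists, and the lower interferon-stimulated genes to 2. With quality weights none of the called genes of the Notch, Wnt, interferon, immediate early and glycolysis lists was called.

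Transcripts of other cell types moved with the populations in part. Mature neutrophil genes (12 tested of 14 in the tables) summed to 723 and 55.2 CPM in the CD41- CD9- libraries, against 4366 and 704 CPM in the CD48dim libraries, with the highest sums in replicate 1 of each. S100a8 did not pass, at 125 and 11.5 CPM in CD41- CD9-, against 989.6 and 190.5 CPM in CD48dim (adjusted p = 0.137, or 0.0398 with the replicate block, edgeR). Pglyrp1 was the 1 member called, lower, at 19.6 and 5.33 CPM in CD41- CD9-, against 172 and 78.2 CPM in CD48dim. Haemoglobin genes, which share reads, summed to 14.6 and 23 CPM in CD41- CD9-, against 288 and 53 CPM in CD48dim, with 0 of 6 tested called. The primary granule genes of granulocyte precursors summed to 4840 and 3550 CPM in CD41- CD9-, against 16313 and 4223 CPM in CD48dim, with 1 of 18 tested called. That gene, Elane, was lower, at 275 and 273 CPM in CD41- CD9-, against 2874 and 1011 CPM in CD48dim. Mpo did not pass, at 3107 and 2182 CPM in CD41- CD9-, against 9789 and 2103 CPM in CD48dim. Of 16 tested endothelial and stromal genes 3 were higher (Pecam1, Fn1 and Cdh5) and 3 lower (Tie1, Bgn and Cxcl12). Pecam1, also on blood progenitors, was at 189 and 222 CPM in CD41- CD9-, against 77.1 and 59.2 CPM in CD48dim. Fn1, fibronectin, was at 78.7 and 61.9 CPM in CD41- CD9-, against 13 and 6.6 CPM in CD48dim. Cdh5, the endothelial cadherin, was at 12.4 and 4.76 CPM in CD41- CD9- with no count in CD48dim. Tie1 ran the other way, at 0.236 and 1.05 CPM in CD41- CD9-, against 78.7 and 85.5 CPM in CD48dim. The list summed to 401 and 386 CPM in CD41- CD9-, against 463 and 472 CPM in CD48dim. Of its defining members, Col3a1 had no count in the 4 libraries, and Cldn5 and Pdgfra had none in CD41- CD9-. The part of granule and endothelial transcripts in the results above was not tested. Plasma cell and mature B cell genes held 0 calls of 9 tested and summed to 246 and 274 CPM in CD41- CD9-, against 164 and 284 CPM in CD48dim. The mature T cell list summed to 66.2 and 50.5 CPM in CD41- CD9-, against 8.88 and 10.9 CPM in CD48dim. The block called 3 neutrophil genes and 2 primary granule genes lower and 1 plasma cell gene, Sdc1, higher (adjusted p = 0.0437, edgeR). With the neutrophil and haemoglobin lists, Malat1 and the ribosomal RNA Rn45s left out before scaling, 523 genes were called, 519 of them among the 530.

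The genes with the largest changes were mostly absent on one side. Ranking by log2 fold change favours such genes, since a side without counts inflates the value. All 15 protein-coding genes with the largest increase had no count in either CD48dim library. Besides those already given, there were 7. Rasal1, a Ras regulator, was at 29.7 and 35.8 CPM in CD41- CD9-. The magnesium transporter Slc41a2 was at 14.9 and 19 CPM, the receptor phosphatase Ptpro at 17.9 and 13.8 CPM and the potassium channel subunit Kcng1 at 23.3 and 6.46 CPM there. The Fc receptor homologue Fcrl1 was at 12.3 and 13 CPM, Plxdc1 at 18 and 6.54 CPM and the phosphatidylserine receptor Havcr1 at 15.6 and 8.31 CPM in CD41- CD9-. Rasal1 was close to 0 in all other populations too, at 0.26 and 0.366 CPM in CD48bright and 0.877 and 0 CPM in CD34bright. Among the 15 with the largest decrease, the potassium channel gene Kcnj5 was at 0 and 0 CPM in the CD41- CD9- libraries, against 35 and 37.4 CPM in the CD48dim libraries, at least 303-fold lower. The matrix proteoglycan gene Bgn was at 0.0787 and 0 CPM in the CD41- CD9- libraries, against 89.8 and 136 CPM in the CD48dim libraries (log2 fold change -11.17 ± 0.81, adjusted p = 0.000551, edgeR). The caveolar genes Sdpr and Prkcdbp had no count in CD41- CD9-, against 23.3 and 18.4 CPM of Sdpr and 4.84 and 16.2 CPM of Prkcdbp in CD48dim. The prostaglandin transporter Slco2a1 was at 0.0787 and 0 CPM in CD41- CD9-, against 28.9 and 82.3 CPM in CD48dim. Slco2a1 was at or under 0.206 CPM in all CD48bright and CD34bright libraries. The chemokine gene Cxcl12 and the RNA-binding protein gene Rbpms2 had no count in CD41- CD9-, against 11.6 and 16.9 CPM of Cxcl12 and 9.76 and 17.7 CPM of Rbpms2 in CD48dim. Clstn3 was at 0.0787 and 0.242 CPM in CD41- CD9-, against 23.1 and 21.7 CPM in CD48dim. Gm973 was at 0.0787 and 0 CPM in CD41- CD9-, against 9.03 and 7.83 CPM in CD48dim. Olfr248 and Aspa were called although CD48dim replicate 2 held most of the signal. Olfr248 had no count in CD41- CD9- and 2.57 and 30.8 CPM in CD48dim. Aspa was at 0 and 0.404 CPM in CD41- CD9-, against 3.3 and 58.7 CPM in CD48dim.

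The populations outside the comparison lay between its ends for most called genes. The CD48bright mean was between the means of CD41- CD9- and CD48dim for 245 of the 261 higher genes and 246 of the 269 lower genes, and the CD34bright mean for 229 and 235. Positions were set on log2(CPM + 1), where 1 is CD41- CD9- and 0 is CD48dim. The median position of CD48bright was 0.55 on the higher genes and 0.5 on the lower genes, and that of CD34bright was 0.4 and 0.57. The genes were picked for a difference between the populations at the ends, so these shares are a description with no test. Among the genes outside that range was Fcer1a, at -0.66 for CD48bright and -0.7 for CD34bright. Others lay near one end. Gata2 was low only in CD41- CD9- cells, with 396 and 312 CPM in CD48bright and 319.9 and 482 CPM in CD34bright, while Esam (2.24 and 2.38 and 2.58 and 3.7 CPM) and Slco2a1 were low in both of these as well. Of the 6 pairs of populations this one had 530 calls and the others 0 to 111, which restates why the pair was chosen. The median absolute log2 fold change was 0.64 for this pair and 0.68 for CD48dim against CD34bright, and neither order was tested, since pairs share libraries.

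**Figure D5:**
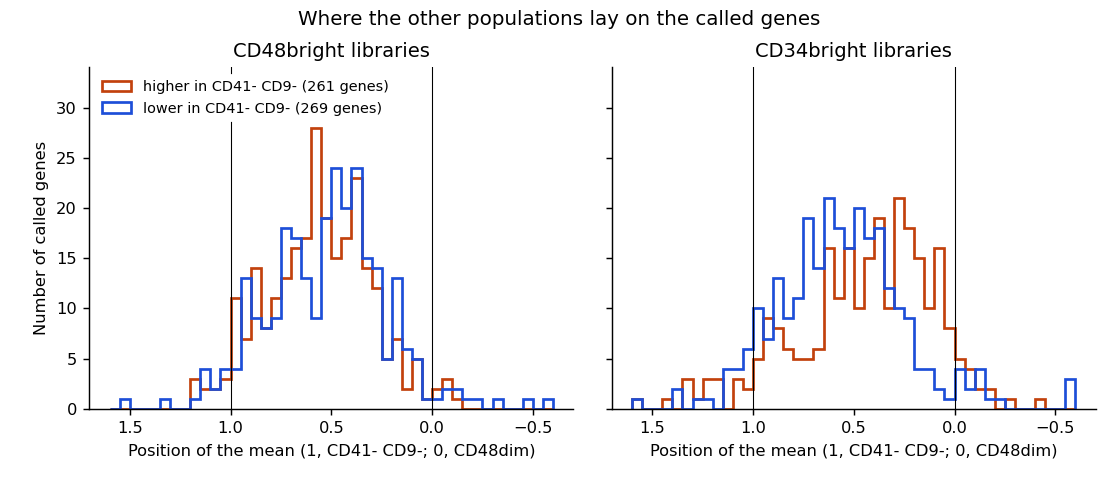
Position of the CD48bright mean (left) and the CD34bright mean (right) on the 261 genes higher and the 269 genes lower in CD41- CD9- cells, where 1 is the CD41- CD9- mean and 0 the CD48dim mean on log2(CPM + 1), and values past -0.6 or 1.6 are drawn at the edge. Most genes lie between 0 and 1, and in CD34bright the higher genes sit closer to CD48dim (median 0.4) than the lower genes do (median 0.57).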

How the data were processed

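RNA from 8 libraries, 2 for each of 4 sorted populations, was read from the deposited tables. Per the file headers, the authors deposited an expected count and a TPM for each gene. The submitters' processing notes list mm10 and the tools STAR 2.7.2a, RSEM 1.3.2 and edgeR 3.30.3. The labels' protocols describe amplification of 5 ng of total RNA (Ovation RNA-Seq V2) and unstranded libraries, so a gene's reads cannot be parted from those of an overlapping or antisense neighbour.

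Expected counts were rounded, which altered at most 2.2% of the genes in any library. After filterByExpr by population and TMM scaling, edgeR 4.0.16 (R 4.3.3) fitted a quasi-likelihood model with 1 mean per population to all 8 libraries, with 4 residual degrees of freedom, 5.46 prior degrees of freedom and a biological coefficient of variation of 49.8%. Two-sided p-values were adjusted by Benjamini-Hochberg over 13177 genes and called below 0.05. Standard errors are approximate, from the log2 fold change over the root of F. The labels give the populations shared replicate numbers without saying what they mark. Deviations from the population means correlated in all 6 pairs of populations between same-numbered libraries (0.112 to 0.222), so the fit with the number as a block is given where it changes a call. The 6 values share libraries and are not independent. Replicate 1 had the larger total of expected counts in every population, and the part of depth in these correlations was not tested. DESeq2 1.42.0, limma 3.58.1 and left-out libraries were alternatives. The fit was tried on simulated counts with the same spread in every gene and population. They do not show how it behaves where duplicates differ as those of CD48dim did. TPM served only to give the levels of Kit, Flt3 and Il7r per transcript length, and no test used it.

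The comparison, the 38 gene lists (750 of 760 entries matched) and the rule for named genes were chosen with earlier results of these data known. The rule names the 7 sort marker genes, the 15 protein-coding genes with the largest called change per direction (mean of at least 8 CPM in the higher population, no overlap), up to 4 called members per list and direction, and any other list member with its values. Gene positions are GRCm38.p6, the assembly of mm10. Some genes are not reported here, although they stay in the fits and counts.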

Additional observations from a re-analysis of the deposited data

How the results depend on the processing

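The 530 calls (261 higher, 269 lower in CD41- CD9- cells) came to 523 with RLE factors, 512 with no scaling beyond totals, 531 with a stricter count filter, 523 with abundant and mature cell transcripts left out and 470 with limma-voom. DESeq2 called 1538 (734 higher, 804 lower) and no filter on low counts 1191 (565, 626), each with all 530 among them. The fit of the 4 compared libraries alone called 129 (74, 55), limma-voom with quality weights 188 (53, 135), and a test against a log2 fold change of 1 called 199 (114, 85). Leaving out 1 library gave 81 to 3295 calls (56 to 1976 higher, 25 to 1319 lower), with 297 and 280 without CD34bright replicate 1 or 2 and 348 and 334 without CD48bright replicate 1 or 2. The lowest counts came without a CD41- CD9- library and the highest without a CD48dim library, and the cause was not tested. In each of these fits the lone library left in a population was assumed to vary like the other populations.

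Of 115 called genes named by rule, none changed sign under any of these settings. Each of the 261 higher and 269 lower genes had no overlap between the libraries compared. Picking called genes thus left little room for a change of sign. Fcgr3, which was not called, had a log2 fold change of 1.85 without CD48dim replicate 1 and -1.86 without replicate 2. With the 4 libraries alone 57 of the 115 were called, with quality weights 45, and without CD41- CD9- replicate 1 or 2, 35 and 55. With the replicate block 965 genes were called (509 higher, 456 lower), all 530 among them, and with the block and the 4 libraries alone 566. Of the gene lists, no member called without the block was lost with it. Depth limits genes of few counts, since 3 counts over the 2 CD48dim libraries are 0.144 CPM.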

Other observations

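Called genes outside the lists added other groups, and those named here were chosen after their values were seen. The endosomal receptors for nucleic acids Tlr7 and Tlr9 were higher in CD41- CD9- cells, and so was Unc93b1, the protein that carries them to the endosome. Tlr7 was at 85.9 and 97.6 CPM in CD41- CD9-, against 3.38 and 0.137 CPM in CD48dim. Tlr9 was at 58.9 and 40.2 CPM in CD41- CD9-, against 0.734 and 0 CPM in CD48dim. Unc93b1 was at 206 and 169.8 CPM in CD41- CD9-, against 24.2 and 26.7 CPM in CD48dim. Their log2 fold changes were 5.61 ± 1.03, 6.84 ± 1.00 and 2.88 ± 0.35 (SE, adjusted p = 0.0201, 0.00807 and 0.00382, edgeR). The interleukin 12 subunit Il12a was higher, at 218 and 289 CPM in CD41- CD9-, against 21.4 and 45.6 CPM in CD48dim. The chemokine gene Ccl3 was higher, at 279.9 and 281 CPM in CD41- CD9-, against 15.5 and 42.9 CPM in CD48dim.

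On the CD48dim side, the cyclooxygenase gene Ptgs1 was lower in CD41- CD9- cells, at 5.43 and 4.12 CPM in CD41- CD9-, against 202 and 165 CPM in CD48dim. The thromboxane synthase gene Tbxas1 was lower, at 8.97 and 10.3 CPM in CD41- CD9-, against 80.9 and 58.5 CPM in CD48dim. The monoamine transporter Slc18a2, which loads serotonin into platelet granules, was at 24.6 and 35.8 CPM in CD41- CD9-, against 333 and 923 CPM in CD48dim. The transcription factor gene Sox6 was lower, at 1.57 and 3.07 CPM in CD41- CD9-, against 131 and 180.4 CPM in CD48dim (log2 fold change -6.06 ± 0.54). Prdm16, a factor of stem cells, was lower, at 2.2 and 1.29 CPM in CD41- CD9-, against 52.2 and 57.4 CPM in CD48dim. The imprinted non-coding RNA Meg3 had no count in CD41- CD9- and 22.5 and 82.6 CPM in CD48dim. Angpt1, the ligand of the receptor that Tek encodes, was at 67.2 and 150.2 CPM in CD41- CD9-, against 386 and 1099 CPM in CD48dim. Of the 261 higher and 269 lower genes, 73 and 54 belonged to a list.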
